A study of Hydra vulgaris with 40 samples.

Results

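The comparison set 4 RNA-seq samples of Hydra vulgaris buds at stages 6 and 7 against 6 samples of buds at stages 3, 4 and 5, with 2 samples of each stage. These are 10 of the 16 bud samples and of the 40 samples of the series. The samples were chosen by stage, and all 17438 genes of the table passed the filter on low values, which asked for a value over 0 in 2 or more samples. The RNA of every bud sample came from the head region of the bud, which was cut off, and the polyps, whose strain is not given in the sources used here, had been starved for at least 1 day. How many buds went into a sample is not given in the sources used here. Buds of stages 1, 8 and 10, a course of head regeneration up to 48 h and 5 tissues dissected from adults (foot, budding zone, body column, hypostome and tentacles) served to define groups of genes.

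Hydra reproduces asexually by budding. A bud grows out of the budding zone of the parent, sets up its own head organizer at the tip, and forms a hypostome, the cone that carries the mouth, and a ring of tentacles before it forms a foot and detaches. Tentacles consist largely of battery cells, which are epithelial cells loaded with nematocytes, the stinging cells. The comparison addresses which transcripts differ between buds in the middle of this course and younger buds. The values are TPM, a transcript's abundance per length and library total, after batch adjustment and normalization by the authors, and are called adjusted TPM here. None of the gene identifiers was paired with a name by the reference table, so that markers of cell types could not be looked up. Gene groups were defined instead by where a gene was high in the adult polyp.

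The replicates of stages 6 and 7 did not share their sorted values within a stage. Stage 6 replicate 1 holds the same sorted values as stage 7 replicate 2, and stage 6 replicate 2 the same as stage 7 replicate 1, whereas in each other bud stage both replicates share their sorted values. Whether labels were crossed between stages 6 and 7 was not tested, and every value given for stage 6 or stage 7 alone rests on those labels. An exchange of labels alone between these stages would leave the pooled comparison as it is. A crossing when the values were normalized would have altered the values that enter it. The rank correlation across genes within stages 6 and 7 ran from 0.901 to 0.956. Its lowest value was between stage 6 replicate 1 and stage 7 replicate 2, the samples with the same sorted values. Within stages 3 to 5 it ran from 0.913 to 0.962, and between both groups from 0.896 to 0.963. Its median was 0.9445 within stages 6 and 7, 0.9394 within stages 3 to 5 and 0.9384 between both groups. Samples of different groups were thus about as alike as samples of the same group. The SD of log2(value + 1) over samples had a median over genes of 0.27 at stages 6 and 7 and 0.33 at stages 3 to 5. Column sums of the 16 bud samples lay between 998314 and 1014380 and genes listed at 0 between 164 and 812. No read totals entered, and depth is unknown.

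No gene passed the test between stages 6 and 7 and stages 3 to 5. With limma on log2(value + 1), 0 of 17438 genes (0%) were higher and 0 (0%) were lower at a Benjamini-Hochberg adjusted p of 0.05, and the lowest adjusted p was 0.9999. At an unadjusted p under 0.05, 100 genes (0.573%) were higher and 257 (1.47%) were lower. The samples of both groups did not overlap in 19 genes that were higher (0.109%) and in 13 that were lower (0.0745%). With 4 and 6 samples split at random, a gene separates fully in either direction with a probability of 0.00952, above these shares. The median log2 difference over all genes was -0.03, and the middle 50% of genes lay between -0.14 and 0.06. A missed threshold does not show that genes were equal. The median 95% interval reached 0.45 to either side of a gene's log2 difference. For 14499 genes (83.1%) the whole interval lay within a log2 difference of 1, which is a doubling of value + 1. The intervals of the other genes allow larger differences. For genes well under 1 adjusted TPM the added 1 keeps this difference small whatever the fold change. In the adult tissue lists described below, the share ran from 45.9% (hypostome) to 75.1% (foot). The methods call the replicates biological, but nothing says that those of the buds came from separate animals, and the p-values measure only the spread between these samples.

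The steps inside the groups gave few calls as well. In a fit with a mean for each stage, limma called 4 genes higher (0.0229%) and 0 lower at stage 4 against 3, and 1165 (6.68%) were higher and 298 (1.71%) lower at an unadjusted p under 0.05. Stage 5 against 4 had 0 calls, with 337 (1.93%) higher and 321 (1.84%) lower unadjusted. Stage 6 against 5 had 1 gene higher (0.00573%) and 0 lower, with 143 (0.82%) higher and 252 (1.45%) lower unadjusted. Stage 7 against 6 had 0 higher and 1 lower (0.00573%), with 266 (1.53%) higher and 306 (1.75%) lower unadjusted. These steps share samples and are given side by side only, and those with stage 6 or 7 rest on labels that are in doubt. In a fit of all 16 bud samples, stages 3 to 5 against stage 1 had 390 genes higher (2.24%) and 5 lower (0.0287%), whereas stages 6 and 7 against 3 to 5 again had 0 and 0, with 150 (0.86%) higher and 284 (1.63%) lower at an unadjusted p under 0.05.

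Tentacle genes were defined from the adult tissues alone, as genes with a mean of at least 5 adjusted TPM in tentacles, over 2-fold above each other tissue and with a limma adjusted p under 0.05 there. Of the 1864 tentacle genes, 0 passed the test in the buds. Their median log2 difference was -0.05, against -0.03 over all genes, with 32.2% of them above 0, against 36.6% of all genes. The median was -0.12 without stage 6 replicate 1 and -0.11 without stage 3 replicate 2. At an unadjusted p under 0.05, 126 tentacle genes (6.76%) were lower and 5 (0.268%) were higher, beside the 1.47% and 0.573% of all genes. Their mean level on the log2(value + 1) scale was 3.41 and 2.84 in the stage 6 samples and 2.99 and 2.72 in the stage 7 samples. The 6 samples of stages 3 to 5 ran from 2.79 at stage 3 to 3.27 at stage 5. Stage 6 replicate 1 was above every younger bud and stage 7 replicate 2 below every one of them, so that stages 6 and 7 enclosed the range of the younger buds. In whole tissue, fewer tentacle cells and less of each transcript per cell cannot be told apart.

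The 353 hypostome genes, defined in the same way, had 0 calls and the highest median difference of the adult tissue lists, 0.10, with 60.9% of the genes above 0. Their mean log2 level was 4.11 and 3.40 at stage 6 and 3.69 and 2.99 at stage 7. It was 2.94 and 3.17 at stage 3, 3.19 and 3.44 at stage 4, and 3.81 and 3.84 at stage 5. The mean over samples was 3.55 ± 0.47 (SD, n = 4) at stages 6 and 7 and 3.40 ± 0.37 (SD, n = 6) at stages 3 to 5. Without stage 6 replicate 1 the median difference was -0.02, so that its direction rests on this sample. At an unadjusted p under 0.05, 2 hypostome genes (0.567%) were higher and 10 (2.83%) were lower, beside 0.573% and 1.47% of all genes. The hypostome and tentacle genes took 2.63% and 7.30% of the summed adjusted TPM in stage 6 replicate 1, and 0.951% and 4.03% in stage 7 replicate 2.

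The head list held 432 genes that were over 2-fold higher in both tentacles and hypostome than in body column, budding zone and foot. None passed the test. Of these 432 genes, 40 (9.26%) were lower and 3 (0.694%) higher at an unadjusted p under 0.05, beside 1.47% and 0.573% of all genes. Their mean log2 level was 3.86 ± 0.53 (SD, n = 4) at stages 6 and 7 and 3.96 ± 0.28 (SD, n = 6) at stages 3 to 5. As a check of the labelled tissue, stage 1 buds averaged 2.38 and buds of stages 8 and 10 averaged 4.65 for these genes, so that every bud from stage 3 on was above stage 1. Replicate 1 was above replicate 2 at both stage 6 (4.56 and 3.58) and stage 7 (3.94 and 3.36), and by more than the replicates of stages 3, 4 and 5 differed.

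Genes of the lower body did not separate the groups either. The 261 foot genes had a median difference of -0.05 and a mean log2 level of 2.93 ± 0.029 (SD, n = 4) at stages 6 and 7 and 2.97 ± 0.14 (SD, n = 6) at stages 3 to 5, with 6 lower (2.3%) and 1 higher (0.383%) at an unadjusted p under 0.05. The 72 body column genes had a median of -0.04 and no gene below an unadjusted p of 0.05. The 152 trunk genes, shared by body column and budding zone, had a median of -0.01 with 2 lower (1.32%) and 0 higher at that level. The 15 budding zone genes had a median of -0.04 and none. Over all genes, 1.47% were lower and 0.573% higher at that level. In each of these lists 0 genes passed the adjusted test and the sample levels of both groups overlapped.

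**Figure D1:**
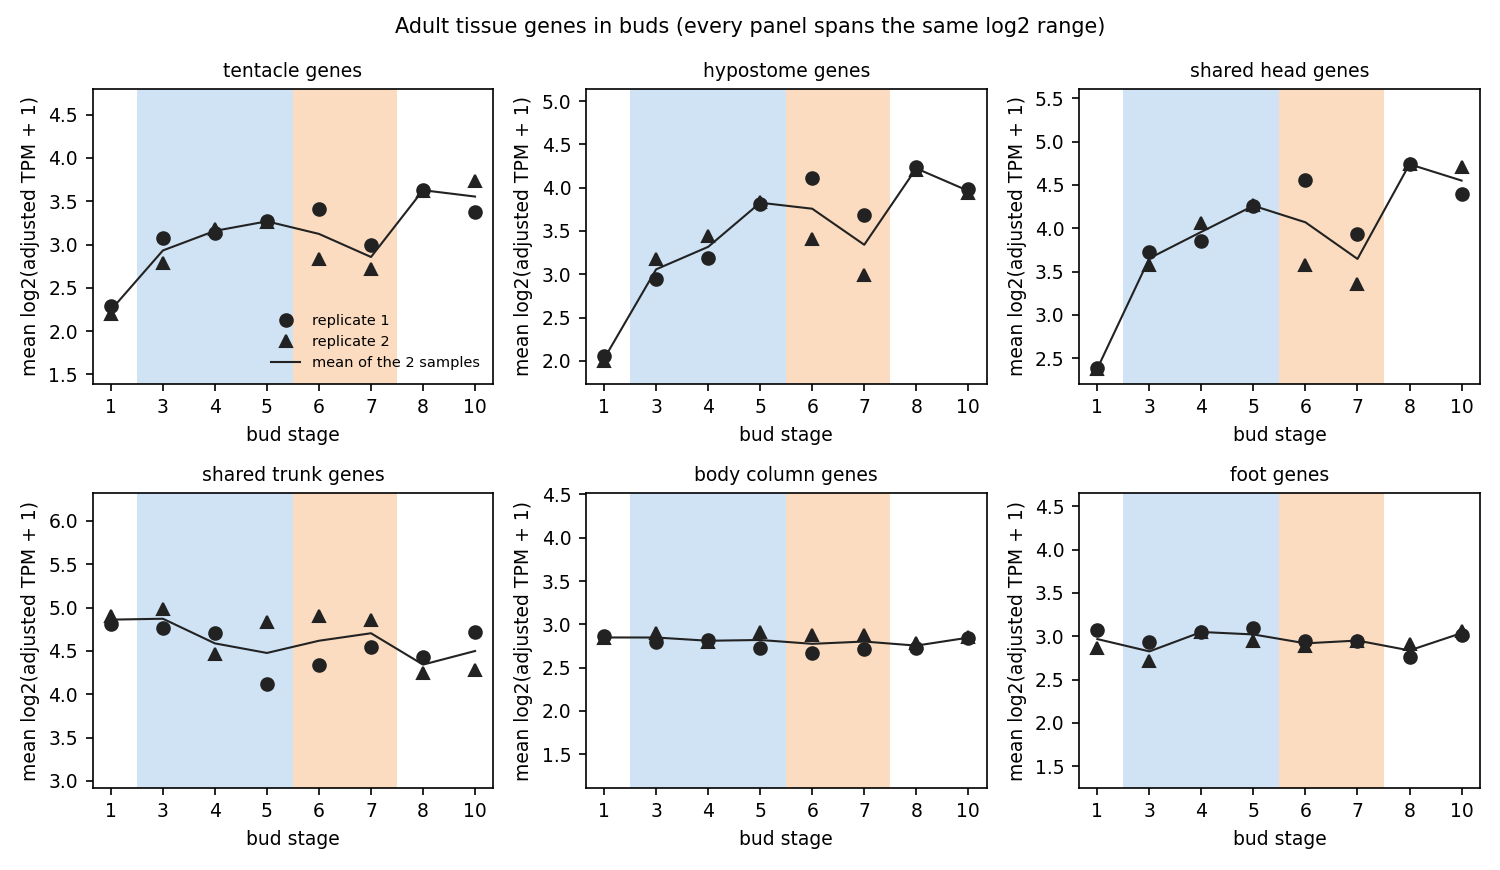
Mean log2(adjusted TPM + 1) of 6 lists of adult tissue genes (y axis) in each bud sample by stage (x axis). Circles are replicate 1, triangles replicate 2, lines join stage means, blue marks stages 3 to 5 and orange stages 6 and 7. Tentacle, hypostome and shared head genes spread widely at stages 6 and 7, with stage 6 replicate 1 highest and stage 7 replicate 2 lowest. Shared trunk genes spread nearly as much as tentacle genes there (SD 0.27 and 0.30), with stage 6 replicate 1 lowest. Body column and foot genes spread less.

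How far the buds had gone towards late buds was read from genes chosen on other samples. Stages 8 and 10 were compared with stage 1 in a fit of those 6 samples only, which gave 2420 genes higher (13.9%) and 763 lower (4.38%) by limma at an adjusted p of 0.05. With quantile normalization the same comparison gave 1746 higher and 1645 lower, a more even split. Of the higher genes, 845 were tentacle genes, which is 34.9% of them and 45.3% of the tentacle list, and 217 were hypostome genes, 8.97% of them and 61.5% of the hypostome list. For these 2420 genes a sample's mean log2 level was placed between the mean of stage 1, set to 0%, and the mean of stages 8 and 10, set to 100%. Stage 6 was at 93.0% and 54.0%, and stage 7 at 65.3% and 40.3%. The younger buds were at 51.1% and 45.5% at stage 3, 60.0% and 64.6% at stage 4, and 76.0% and 77.9% at stage 5. From stage 3 to stage 5 every later sample was therefore above every earlier one. At stages 6 and 7, 1 sample was above all of them, 1 was below all of them, and the other 2 lay between. The median difference of these 2420 genes was 0.04, with 0 calls, and it was -0.08 without stage 6 replicate 1. At an unadjusted p under 0.05, 95 of them (3.93%) were lower and 10 (0.413%) higher, beside 1.47% and 0.573% of all genes.

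The 763 genes that were lower in late buds also set stage 6 replicate 1 apart. Their position on the same scale was 128% and 46.9% at stage 6 and 51.6% and 32.3% at stage 7. It was 59.9% and 40.2% at stage 3, 26.4% and 34.8% at stage 4, and 63.2% and 57.3% at stage 5. Stage 6 replicate 1 lay between the stage 8 samples, which were at 129% and 123%, and beyond the stage 10 samples, which were at 66.0% and 81.6%. The other 3 samples of stages 6 and 7 were within the range of the younger buds. The median difference of these genes was -0.16 and became 0.02 without that sample. At an unadjusted p under 0.05, 0 of them were lower and 1 (0.131%) was higher, beside 1.47% and 0.573% of all genes.

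**Figure D2:**
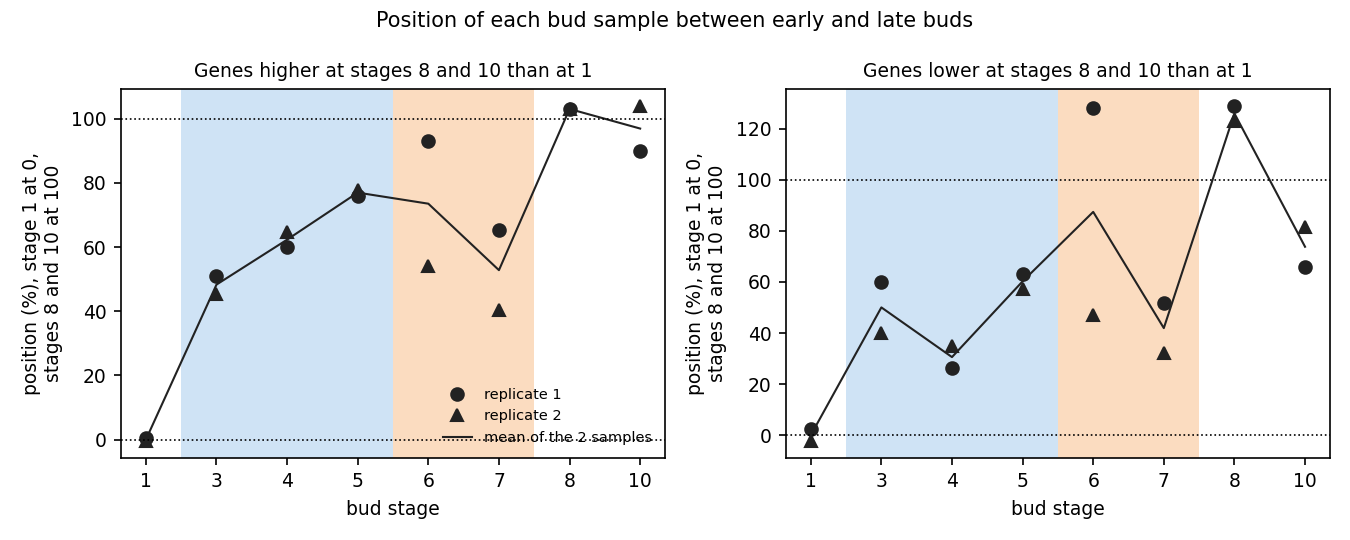
Position of each bud sample (y axis, percent of the distance from stage 1 to stages 8 and 10 in mean log2 level) by stage (x axis), for 2420 genes higher (left) and 763 genes lower (right) in late buds, with circles for replicate 1, triangles for replicate 2, lines for stage means, blue for stages 3 to 5 and orange for stages 6 and 7. Positions climb from stage 3 to stage 5 for the first set, and at stages 6 and 7 they run from 40.3% to 93.0% for that set. Stages 1, 8 and 10 chose the genes.

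Genes of head regeneration, in which a cut polyp builds a new head from its body, were chosen on the 14 regeneration samples, where 1701 genes were higher (9.84%) and 1913 lower (11.1%) at 48 h than at 0 h by limma at an adjusted p of 0.05. Of the 1701 genes, 810 were also higher in late buds than at stage 1, which is 47.6% of them and 33.5% of the late bud genes. None of the 1701 passed the test at stages 6 and 7 against 3 to 5, and their median log2 difference was -0.0023. At an unadjusted p under 0.05, 89 of the 1701 genes (5.23%) were lower and 13 (0.764%) higher, beside 1.47% and 0.573% of all genes. Their mean log2 level was 4.04 and 3.43 at stage 6 and 3.73 and 3.36 at stage 7, against 3.45 and 3.33 at stage 3, 3.62 and 3.73 at stage 4, and 3.93 and 3.83 at stage 5. Stage 6 replicate 1 was again the highest, and the other 3 samples of stages 6 and 7 were within the range of the younger buds.

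The 1913 genes lower at 48 h had a median difference of -0.14 at stages 6 and 7, with 0 calls. At an unadjusted p under 0.05, 29 (1.52%) were lower, near the 1.47% of all genes, and 0 were higher, beside 0.573%. Without stage 6 replicate 1 the median was -0.08, against -0.02 over all genes. These lists share no samples with the buds compared.

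In the pooled comparison, genes were called only when 1 particular sample was left out. Without stage 6 replicate 1, limma called 85 genes lower (0.487%) and 8 higher (0.0459%) at stages 6 and 7, against 0 and 0 with it. Leaving out any other of the 10 samples gave 0 calls in both directions. In all 85 lower genes the 3 remaining samples of stages 6 and 7 were below all 6 samples of stages 3 to 5, and stage 6 replicate 1 was above those 3 samples. It was within the range of stages 3 to 5 in 40 of the 85. The median log2 difference of the 85 genes was -1.30 without stage 6 replicate 1 and -0.89 with it. The 8 higher genes were low, with a median of 0.428 adjusted TPM over the 3 remaining samples and 0.144 at stages 3 to 5. In all 8, stage 6 replicate 1 was above those 3 samples, with a median of 2.35, and the median log2 difference was 0.35 without it and 0.66 with it.

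The 85 lower genes were mostly tentacle genes. Of them, 60 (70.6%) were in the tentacle list, which holds 10.7% of all genes, and 54 (63.5%) were in the list of genes higher in late buds, which holds 13.9%. Their median was 7.98 and 0.37 adjusted TPM in the stage 6 samples and 0.84 and 0.14 in the stage 7 samples. At stages 3 to 5 the sample medians ran from 4.67 to 5.17. In samples that had no part in the call, the medians were 0.37 and 0.21 at stage 1, 12.5 and 11.4 at stage 8, and 7.75 and 17.9 at stage 10. The younger buds and stage 6 replicate 1 thus lay between stage 1 and stage 8. The low medians of the other 3 samples follow from how the 85 genes were chosen, and do not place these samples near stage 1. On the 2420 genes higher in late buds, which were chosen on other samples, stage 6 replicate 2 was at 54.0% of the way. The stage 7 samples were at 65.3% and 40.3%.

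These genes were even among the younger buds, a spread that the call itself uses. Their median coefficient of variation over the 6 samples of stages 3 to 5 was 9.77%, against 27.6% over all genes and 29.0% over the tentacle list. Of them, 16 were listed at 0 in all 3 low samples, and each of these 16 was above 0 in stage 6 replicate 1. Over all genes, 20 were at 0 in those 3 samples and above 0 in all 6 younger buds, and stage 6 replicate 1 was above 0 in each of the 20. The values had been adjusted for batches that are not named, and a part of that adjustment in these plateaus was not tested. The pattern splits stage 6 itself. Its replicate 2 was at 0 by the choice of these 20 genes, and its replicate 1 was above 0 in all of them.

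**Figure D3:**
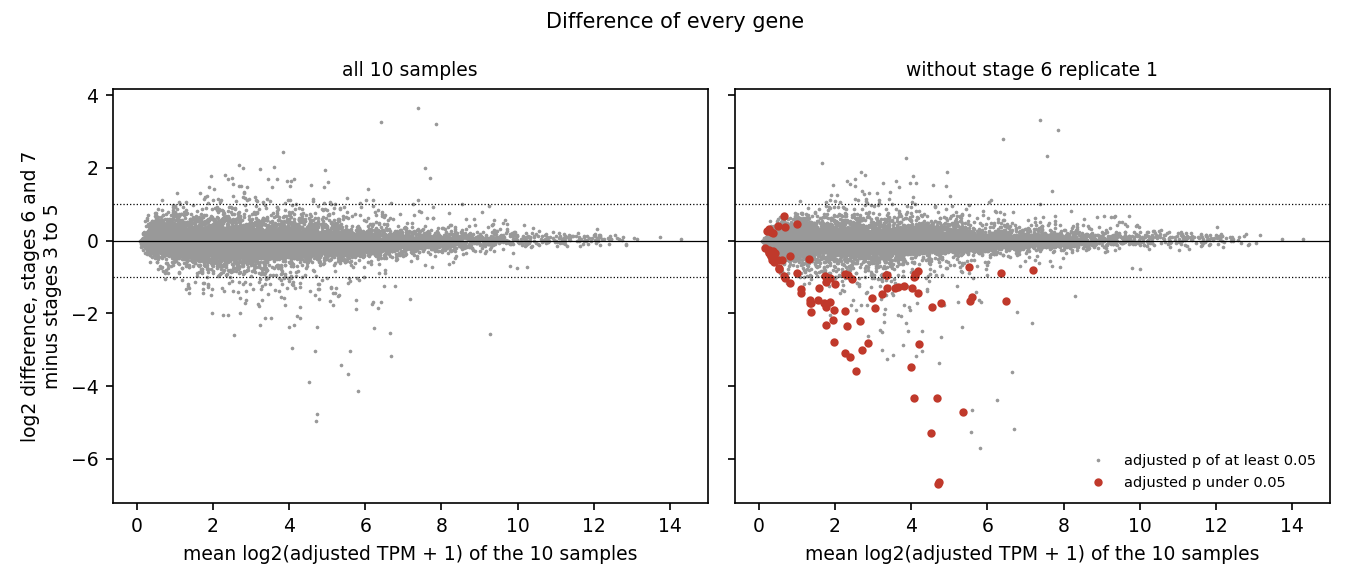
Log2 difference of every gene, stages 6 and 7 minus stages 3 to 5 (y axis), by its mean log2(adjusted TPM + 1) (x axis), with all 10 samples (left) and without stage 6 replicate 1 (right). Red points passed an adjusted p of 0.05, none on the left and, on the right, 8 above 0 and 85 below 0. Dotted lines mark a difference of 1 in either direction.

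**Figure D4:**
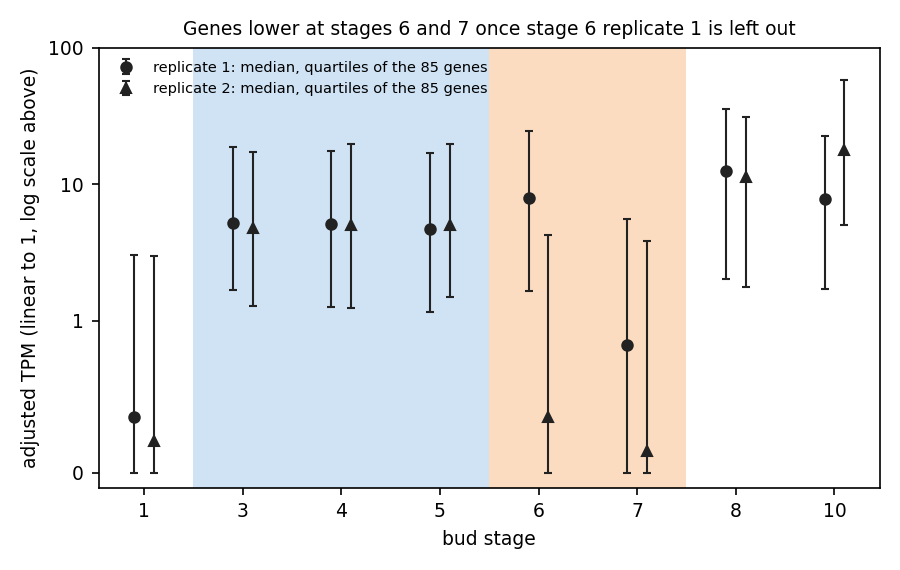
Adjusted TPM (y axis, linear to 1 and log scale above) of the 85 genes called lower without stage 6 replicate 1, in each bud sample by stage (x axis). Points are medians and bars the quartiles over the 85 genes, circles are replicate 1, triangles replicate 2, blue marks stages 3 to 5 and orange stages 6 and 7. The genes were chosen on stages 3 to 7. Stage 6 replicate 1 is at 7.98, above the younger buds, and the other stage 6 and 7 samples are at 0.84 or below.

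Single genes show these patterns. None met the rule for naming, which required an adjusted p under 0.05, and the 4 identifiers given here were chosen after their values were seen. The first part of an identifier is its scaffold in the Hydra 2.0 assembly. Gene Sc4wPfr_635.g14690 had the largest positive difference among genes with a mean of at least 5 in the higher group and no overlap. It had 6.00 and 5.63 adjusted TPM at stage 6 and 5.48 and 4.76 at stage 7, against 2.10 and 4.29 at stage 3, 3.76 and 2.55 at stage 4, and 4.27 and 3.82 at stage 5. All 4 samples of the older buds were above all 6 younger ones. The log2 difference was 0.56 (standard error 0.17, 95% interval 0.17 to 0.95, limma unadjusted p = 0.00968, adjusted p = 0.9999). It was in none of the adult tissue lists. It was at 2.48 and 4.61 at stage 8 and at 5.41 and 2.22 at stage 10, so that each of these stages had a sample within and a sample above the range of stages 3 to 5.

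Gene Sc4wPfr_479.g19787 came next by the same criteria. It had 7.69 and 5.82 adjusted TPM at stage 6 and 6.27 and 5.76 at stage 7, against values from 3.67 to 5.56 at stages 3 to 5. The groups did not overlap, but the nearest samples were close, and the log2 difference was 0.35 (standard error 0.13, 95% interval 0.064 to 0.64, limma adjusted p = 0.9999).

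Gene Sc4wPfr_811.1.g17345, a tentacle gene, had the largest negative difference by the same criteria. It had 9.53 and 5.40 adjusted TPM at stage 6 and 7.04 and 4.32 at stage 7, against 11.4 and 10.7 at stage 3, 12.8 and 11.9 at stage 4, and 12.7 and 9.82 at stage 5. Stage 6 replicate 1 was just under the lowest of the younger buds. The log2 difference was -0.77 (standard error 0.18, 95% interval -1.18 to -0.36, limma adjusted p = 0.9999, and 0.0402 without stage 6 replicate 1). Adult tentacles had 66.2 and 56.2 adjusted TPM and adult foot 13.6 and 18.8, and buds of stages 8 and 10 were higher than those of stage 1 by 1.63 on the log2 scale (limma adjusted p = 0.0208).

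Gene Sc4wPfr_319.g27334, also a tentacle gene, had the largest negative difference among the calls without stage 6 replicate 1. It had 123 adjusted TPM in stage 6 replicate 1 and was listed at 0 in stage 6 replicate 2 and in both stage 7 samples. The younger buds had 107 and 97.4 at stage 3, 99.4 and 107 at stage 4, and 95.4 and 108 at stage 5. The stage 6 and 7 samples thus lay on either side of a narrow band of younger buds. On the log2(value + 1) scale the difference was -4.95 (95% interval -7.73 to -2.17, limma adjusted p = 0.9999), and -6.69 without stage 6 replicate 1 (limma adjusted p = 3.00e-09). The gene was chosen by that last fit, and its p-value rests on the narrow spread of the younger buds, with means of 102.3, 103.1 and 101.5 at stages 3, 4 and 5. A part of the batch adjustment in this spread was not tested. The gene was at 14.8 and 15.3 at stage 1, at 173 and 181 at stage 8, and at 1522 and 1234 in adult tentacles. In the regeneration course it was listed at 0 in both 0 h samples and was at 27.0 and 71.8 at 48 h.

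Opsins are a family of G protein-coupled receptors best known from light detection, and 2 of them, HvOpD8 and HvOpD9, had an identifier in the values. HvOpD8 (Sc4wPfr_144.3.g33748) had 0.38 and 0.08 adjusted TPM at stage 6 and 0 and 0.20 at stage 7, against 0.18 to 0.25 in the 6 samples of stages 3 to 5. The older buds enclosed the range of the younger ones. That range was narrow, with a mean of 0.215 at each of stages 3, 4 and 5, and a part of the batch adjustment in it was not tested. HvOpD8 was among the genes higher at stages 8 and 10 than at stage 1, by 0.74 on the log2 scale (limma adjusted p = 0.0231), with both stage 1 samples listed at 0. Between stages 6 and 7 and stages 3 to 5 the log2 difference was -0.07 (95% interval -0.24 to 0.10, limma adjusted p = 0.9999, exact two-sided permutation p = 0.419 and 0.524 adjusted over both opsins). HvOpD9 (Sc4wPfr_161.g25552) had 0.85 and 0 at stage 6 and 0.38 and 0.73 at stage 7, against 0 and 0.75 at stage 3, 0.36 and 0.25 at stage 4, and 0.11 and 0.52 at stage 5. Its groups overlapped, with a log2 difference of 0.15 (95% interval -0.30 to 0.59, limma adjusted p = 0.9999, exact two-sided permutation p = 0.524 and 0.524 adjusted over both opsins). With 4 against 6 samples the smallest p of the permutation test is 0.00952. Both opsins are low, and reads of related opsins could have been shared with them in the authors' quantification.

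**Figure D5:**
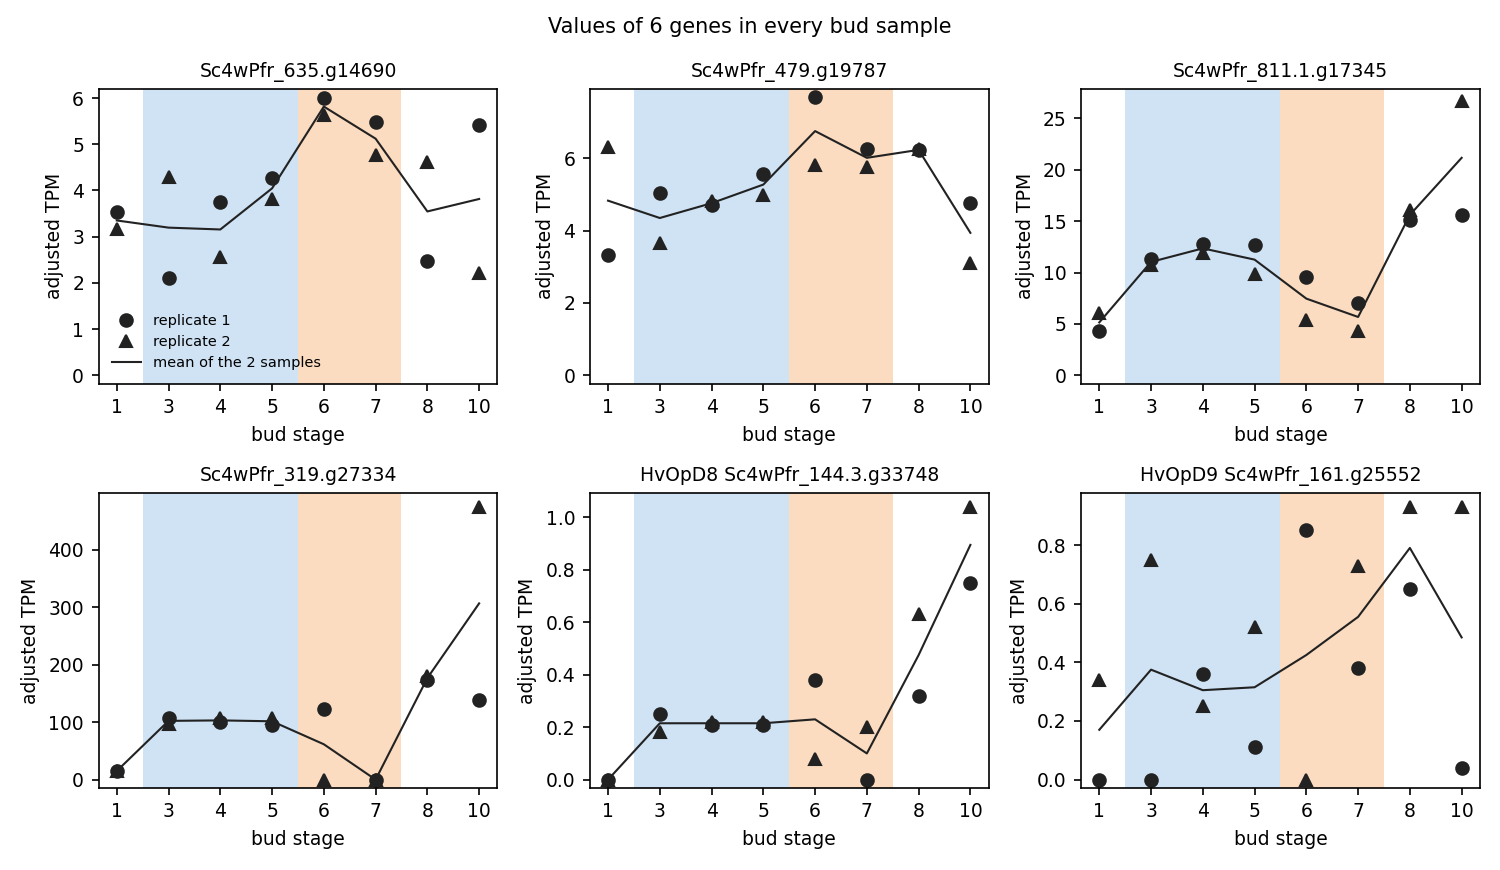
Adjusted TPM (y axis, a scale for each panel) of the 4 genes described above and of the opsins HvOpD8 and HvOpD9 in each bud sample by stage (x axis), with circles for replicate 1, triangles for replicate 2, lines for stage means, blue for stages 3 to 5 and orange for stages 6 and 7. Sc4wPfr_319.g27334 is near 100 in the younger buds and at 123 or 0 at stages 6 and 7.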

How the data were processed

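Reads were trimmed with Trimmomatic 0.35, mapped with Bowtie 1.2 and quantified as TPM with RSEM 1.2.31, tools and versions that the submitters' processing notes name. By the methods, the authors ran ComBat against batch effects and then qsmooth, a smooth form of quantile normalization. The deposited values are therefore a signal on the scale of TPM rather than TPM itself, and column sums differ between stages. Which samples formed a batch is not given in the sources used here. Column names gave the samples.

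Genes with a value over 0 in 2 or more samples were fitted on log2(value + 1) with limma 3.58.1 in R 4.3.3 (lmFit, eBayes with a trend), with stages pooled in each group. P-values were two-sided and adjusted over all genes after Benjamini and Hochberg, with a threshold of 0.05. Tissue lists came from the 10 body map samples, late lists from the 6 samples of stages 1, 8 and 10, and regeneration lists from the 14 regeneration samples. Genes to be named had to have an adjusted p under 0.05, a mean of at least 5 in the higher group and no overlap, with both opsins in any case, whose difference was also tested by an exact permutation test. The samples and lists were chosen with earlier results of these data known. The fit was run on simulated data with independent noise for each gene and sample. These held no shift shared by many genes of a sample, such as that of stage 6 replicate 1, and do not cover that feature. None of the 17438 identifiers matched the RefSeq table of the HydraT2T_AEP assembly. Python 3.11.15, pandas 2.3.3, numpy 2.4.6, scipy 1.17.1 and matplotlib 3.10.9 were used. The alternatives were another pseudocount, filter, normalization, block, design or stage, and leaving out each sample.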

Additional observations from a re-analysis of the deposited data

Results flagged for a closer look

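In 2 of 34 groups of samples examined, 1 sample was far from the others of its group, where chance gives about 1 in 20. That rate does not apply to the genes without a name, which were chosen on these same samples. Sc4wPfr_319.g27334 came from the calls made without stage 6 replicate 1, so that a gap at this sample was built into the choice. Sc4wPfr_319.g27334 had 123.1 adjusted TPM in stage 6 replicate 1, with the other 3 samples of stages 6 and 7 at 0. The mean log2 level of the 261 foot genes was 2.892 in stage 6 replicate 2, below the other 3 samples, which lay between 2.945 and 2.951. That gap is small, and the foot levels of stages 3 to 5 ran from 2.717 to 3.098.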

How the results depend on the processing

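The counts of 0 genes higher and 0 lower remained at 0 under 20 and 21 of 23 alternatives. Of these, the alternative without a filter repeats the main fit, since all 17438 genes passed the filter, and could not differ. Leaving out 1 sample at a time gave 0 to 8 genes higher and 0 to 85 lower, with all calls in the fit without stage 6 replicate 1. By the labels as given, stage 7 alone against stages 3 to 5 gave 12 higher and 77 lower, of which 6 and 63 were also called without stage 6 replicate 1, and stage 6 alone gave 4 higher and 0 lower. At an unadjusted p under 0.05, quantile normalization gave 122 higher and 184 lower genes, against 100 and 257. With the replicate number as a block, 0 genes were higher and 0 lower. Differences between replicates correlated between -0.258 and 0.361 across stages, so that replicate numbers showed no common pairing over all stages. The highest value was between stages 6 and 7, the stages pooled here, and whether their replicates were paired was not tested. Of the list medians, those of the hypostome, head, trunk and budding zone lists took the other sign when some sample was left out, over ranges of -0.02 to 0.27, -0.08 to 0.0031, -0.07 to 0.10 and -0.07 to 0.0043. The genes lower at stages 8 and 10 than at stage 1 numbered 1645 with quantile normalization, against 763, and that setting moved the median log2 difference of all genes to -0.20, against 0.03. HvOpD8 was 0.0071 higher at stage 6 alone. Read depth is unknown and its limit could not be computed.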
